A study of Homo sapiens with 4 samples.

Results

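Cytochrome c oxidase is the last enzyme complex of the mitochondrial respiratory chain, also called complex IV, and passes electrons from cytochrome c to oxygen. Its catalytic core is made inside mitochondria from mitochondrial genes, while the smaller subunits around that core are encoded in the nucleus, translated in the cytosol and imported. LARP4, a cytoplasmic member of the La-related proteins, is known to contact poly(A) tails and the poly(A)-binding protein and to protect mRNAs from decay. The series was made to find LARP4 target RNAs in HEK293, an established line from human embryonic kidney, with nuclear-encoded mitochondrial mRNAs as its named interest. The 8 nuclear-encoded subunit genes described here are COX6A1, COX8A, COX6C, COX7C, COX6B1, COX5A, COX5B and COX4I1.

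LARP4 eCLIP had 2 replicates and size-matched input had 2 replicates. In eCLIP (enhanced crosslinking and immunoprecipitation), ultraviolet light (400 mJ/cm2 at 254 nm) crosslinks RNA to bound proteins. An antibody to LARP4 then recovers the protein with its RNA fragments, which are sequenced beside input RNA that skipped the antibody. All cells were unmodified HEK293, and the input entered only as the denominator of the deposited values. Replicate 1 had 171755 clusters, which are short stranded intervals of aligned reads, replicate 2 had 191899, and a series-wide list had 7153 regions. Each interval carries the authors' log2 fold over input and a −log10 p with an upper limit of 400. The number of reads behind an interval is unknown.

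Clusters belonged to a gene when they shared at least 1 base, on the same strand, with a fixed hg19 window around it. The windows held 74 clusters in replicate 1, 90 in replicate 2 and 80 series-wide regions, which are 1.12% of that list. The 8 genes were selected on the LARP4-over-input folds of these lists. All folds and enriched counts below come from the contrast that chose them, so they are given as descriptions without a test. RefSeq's gene table of GRCh38.p14 put all 8 symbols on the chromosome given by the window, and its promoter table put the 7 genes it lists on the same strand. No cluster of either replicate lay within 1 kb outside a window on its strand.

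The start of each transcript is shown because the clusters of every gene, over both replicates, spanned at least 90.5% of its RefSeq length. The sequences are from RefSeq, build GRCh38.p14, 5′ to 3′. Lower case marks the 10 bases before the annotated start and capitals mark the first 20 transcribed bases. COX6C is not shown.
COX6A1 (GRCh38.p14, chr12:120438103-120438132, plus strand): gcgctgcggcAGTCCAGATCAAAAATGGCG
COX8A (GRCh38.p14, chr11:63974610-63974639, plus strand): cagcgcagccATTTTGGCTTCCTGACCTTG
COX7C (GRCh38.p14, chr5:86617931-86617960, plus strand): tcccatctttCTTTTCAGTCCTTGCGCACC
COX6B1 (GRCh38.p14, chr19:35648313-35648342, plus strand): tccggctggtAGTAGTTCCGCTTCCTGTCC
COX5A (GRCh38.p14, chr15:74938054-74938083, minus strand): gctccggagcAACCCGCGAGCTTACACCGG
COX5B (GRCh38.p14, chr2:97646052-97646081, plus strand): tgttcccggaAGTTTTGCTGCTAGTCGCGG
COX4I1 (GRCh38.p14, chr16:85799685-85799714, plus strand): cggccttgctCTCTTCCGGTCGCGGGACAC

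COX7C and COX4I1 began with a C followed by at least 4 more pyrimidines, the form of start found in terminal oligopyrimidine mRNAs, whose translation responds to growth signals. Their unbroken pyrimidine starts ran for 6 bases in COX7C and 7 in COX4I1, and the other 5 sequences began with A. Of 35116 promoters in the table, 4.07% had a start of this form on the transcript's strand. The hg19 clusters were not placed on these GRCh38 sequences.

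Nearly every cluster of the 8 genes was enriched over input. Clusters were called enriched at a log2 fold of at least 3 (8-fold) and a −log10 p of at least 3. In replicate 1, 71 of 74 clusters in the windows passed, against 5.01% of the whole list, and in replicate 2, 89 of 90 passed, against 5.50% of the list. The median log2 fold in the windows was 4.85 in replicate 1 and 4.95 in replicate 2, against 1.28 and 1.30 over the lists. Among enriched clusters alone the medians were 4.91 and 4.95 in the windows, against 3.60 and 3.64 over the lists. COX6A1, COX8A, COX6B1, COX5B and COX6C had every cluster enriched in both replicates. A fold over input is a ratio and does not give the amount of an mRNA in the cells.

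The clusters that missed the thresholds belonged to 3 genes. COX5A had log2 folds of 2.05 and 2.23 in replicate 1 at its 2 blocks nearest the 5′ end. COX4I1 had a 7-base cluster in replicate 1 at 2.995, just under the threshold, while its lowest passing clusters were at 3.09 in replicate 1 and 3.05 in replicate 2. The remaining one, in COX7C, was a 14-base cluster of replicate 2 at the level of input, with a log2 fold of 0.01. It lay at chromosome 5, 85916361 to 85916374, beside clusters of the same gene above 5. RefSeq lists the small nucleolar RNA gene SNORD138 inside COX7C, and whether that cluster lies on it was not tested.

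**Figure D1:**
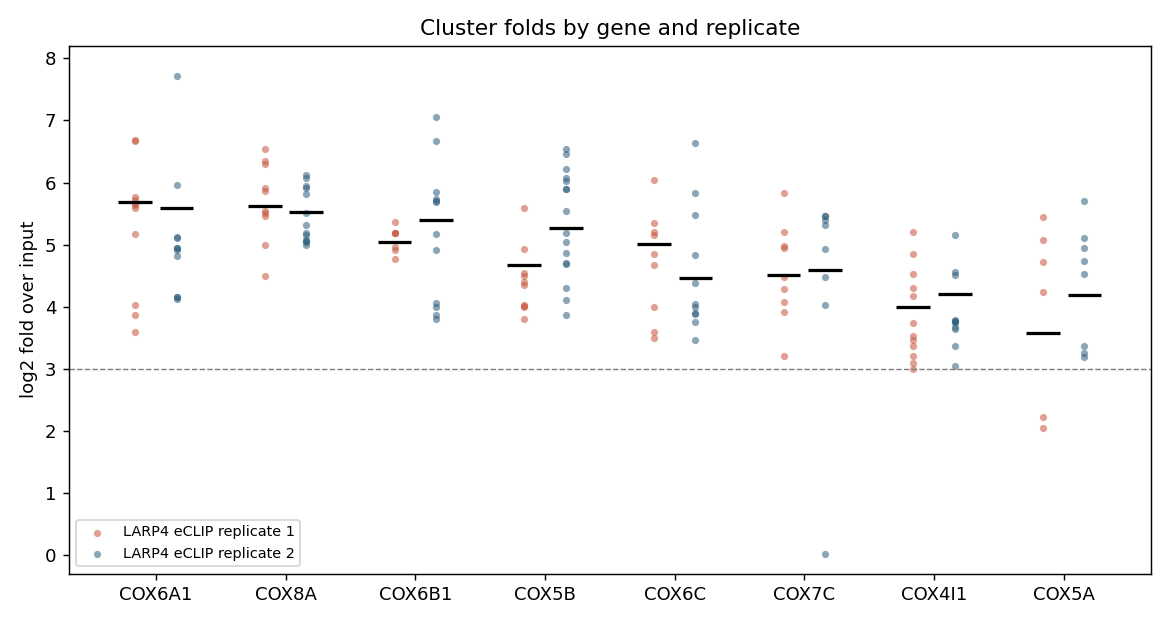
Each point is the log2 fold over input (vertical axis) of 1 cluster, by gene (horizontal axis) and LARP4 eCLIP replicate (colour). Black bars are means weighted by cluster width, and the dashed line marks a log2 fold of 3. Genes run in order of the mean over both replicates, with COX6A1 highest at 5.64 and COX5A lowest at 3.89.

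Most calls recurred in the other replicate. All 74 replicate 1 clusters overlapped a replicate 2 cluster, against 77005 of 171755 over the whole list. Of the 74, 71 (95.9%) were enriched in both replicates, against 6.51% of those 77005. The other 3 were enriched in replicate 2 alone, so none was enriched in replicate 1 alone. Of the 77005, 65555 were enriched in neither replicate, so the 6.51% is not a rate at which calls recur. Over the list 5011 were enriched in both, against 2504 in replicate 1 alone and 3935 in replicate 2 alone. Replicate 2 had 7 of 90 clusters with no replicate 1 partner: 4 in COX6B1 and 1 each in COX5B, COX7C and COX8A. The share of such clusters over the whole replicate 2 list was not counted. Both replicates had the same first and last base for 6 of 74 pairs (8.11%), against 0.458% over the lists. The folds of these 6 pairs differed by at least 0.13 on the log2 scale.

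The −log10 p reached its limit of 400 at 24 clusters in replicate 1 and 29 in replicate 2. Over the lists 0.293% and 0.274% of clusters did so. These clusters were unevenly spread over the genes. COX6A1 had all 11 of its clusters at the limit in each replicate, 1 of them only 2 bases wide, and COX8A had 7 of 10 in replicate 1 and 11 of 13 in replicate 2. COX5A and COX6C had none in either replicate.

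Regions of the 8 genes stood high in the series-wide list. Their median authors' log2 fold was 5.07, against 3.65 over the list, and the lowest was 3.25, in COX4I1. Of the 80 regions, 52 (65.0%) were among the 715 regions with the highest folds, which by construction are 10.0% of the list. The deposited region fold was close to the mean of the replicate clusters, with a median absolute difference of 0.03 and a largest one of 0.48. Replicates were within 1 log2 unit of each other at 67 regions (83.8%), against 75.8% over the list. The median SD between replicates was 0.34, against 0.39 over the list, and the largest in the windows, 1.57, belonged to a 6-base region of COX5B.

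**Figure D2:**
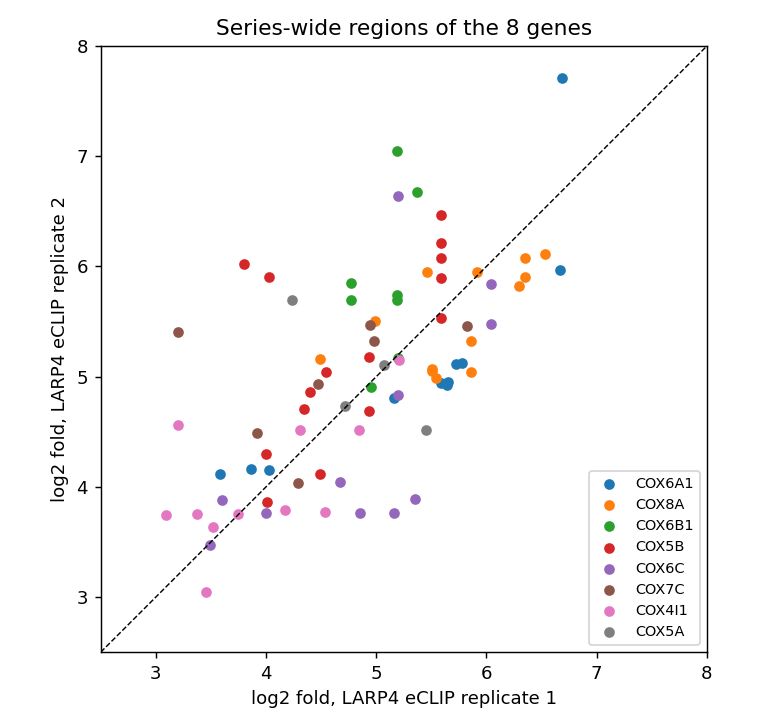
Each point is 1 of the 80 series-wide regions, with the log2 fold of the overlapping cluster in replicate 1 on the horizontal and in replicate 2 on the vertical axis, coloured by gene. The dashed line marks equal folds, and 41 regions lie above it. COX5B points lie mostly above the line (11 of 15) and COX6C points mostly below it (9 of 11). Several COX5B points share the value of 1 replicate 1 cluster, so they are not separate values. The share of regions above the line over the whole list was not counted.

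The genes could be ordered only in steps. COX6A1 and COX8A were highest, at mean log2 folds of 5.64 ± 0.07 and 5.57 ± 0.07 (SD, n = 2), or 49.8-fold and 47.6-fold over input, and did not differ beyond their spread. COX6B1 followed at 5.21 ± 0.25, below COX8A with no overlap of replicate values. Without weights for cluster width, COX6A1 at 5.20 was close to COX6B1 at 5.14, while COX8A had 5.59. The step from COX6A1 to COX6B1 thus depends on the weights. COX6B1, COX5B at 4.97 ± 0.43, COX6C at 4.74 ± 0.39 and COX7C at 4.55 ± 0.06 formed a run in which no neighbours differed by more than the larger SD of the pair. The ends of that run did not overlap. COX6B1 had 5.04 in replicate 1 and 5.39 in replicate 2, against 4.51 and 4.59 in COX7C. COX4I1 at 4.10 ± 0.15 lay below COX7C with no overlap, and COX5A at 3.89 ± 0.43 did not differ from COX4I1 beyond the spread. Replicate 2 was higher in 5 genes, by up to 0.61 in COX5A, and lower in COX6A1, COX8A and COX6C, by 0.55 in COX6C.

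The genes were also set beside loci of the whole genome by a width-weighted mean that pools the clusters of both lists, where a locus joins same-strand clusters that lie at most 5 kb apart. By this mean COX5A had 3.90 and COX6A1 5.64. Of 10151 loci with at least 10 clusters and both replicates, 112 (1.10%) had a mean log2 fold at least as high as COX5A, the lowest gene. For COX4I1 the number was 83, for COX7C 35, for COX6C 24, for COX5B 13, for COX6B1 9, for COX8A 5 and for COX6A1 3. With the clusters of both replicates together, at least 80% were enriched in all 8 windows, against 1.30% of those loci. In replicate 1 alone COX5A had 4 of 6 (66.7%). The 8 windows took in 10 loci, because COX6C and COX5A each had a gap of more than 5 kb, and those of the 10 with at least 10 clusters are counted among the loci above.

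Clusters sat in short blocks. A block joins clusters of either replicate that lie at most 100 bases apart. The 8 genes had 31 blocks, of 12 to 299 bases, and 28 of them held a cluster in both replicates. The share of such blocks over the loci was not counted. The run from the first to the last covered base measured between 90.5% (COX5B) and 99.4% (COX4I1) of the RefSeq gene length. Yet clusters covered only 1.83% of that run in COX6B1 in replicate 1, and at most 23.3%, in COX8A in replicate 2. Gaps between blocks reached 9.22 kb in COX6C and 8.68 kb in COX5A, while the shortest were 0.11 kb in COX7C, 0.149 kb in COX6A1 and 0.203 kb in COX5B. No hg19 exon annotation was used here, so blocks were not assigned to exons or introns.

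**Figure D3:**
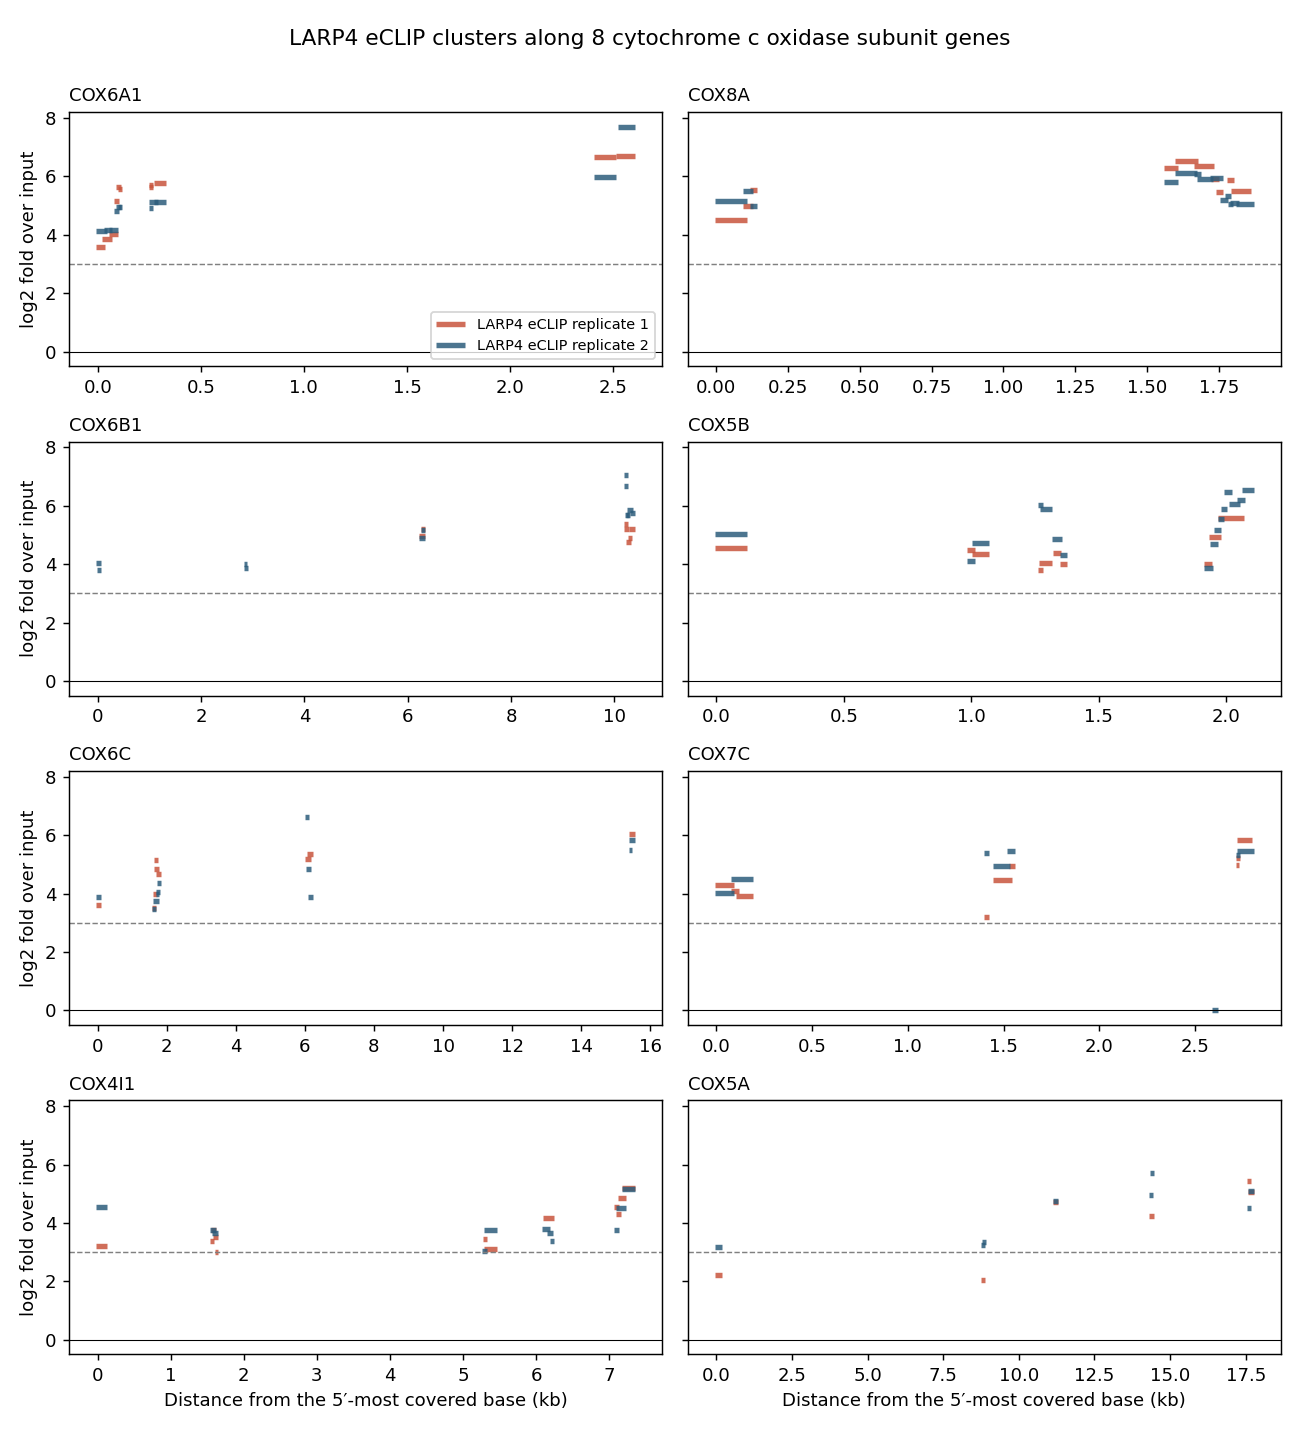
Bars are clusters of LARP4 eCLIP replicate 1 and replicate 2, at their distance from the 5′-most covered base in kb (horizontal axis) and their log2 fold over input (vertical axis). Bars are lengthened slightly so that short clusters can be seen, and the dashed line marks a log2 fold of 3. In every gene the clusters fall in 2 to 5 blocks, and the block with the highest mean over both replicates is the one at the 3′ end. In replicate 2 alone, however, the block before the 3′ end is higher in COX5A. How often the 3′ block is highest over the loci was not counted.

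Over both replicates, the block with the highest mean was the 3′-most in all 8 genes, and it held the region whose lower replicate value was highest. How often this holds over the loci was not counted. Within replicate 2, COX5A was an exception, with a mean of 5.01 in its 3′ block, against 5.25 in the block before it. Single clusters could also be higher elsewhere, as in COX6C, where a 3-base cluster of replicate 2 in the block before the 3′ end had 6.64, against 5.84 for the highest cluster of the 3′ block. The 3′-most blocks held 36 of the 80 regions (45.0%), from 10 of 13 in COX8A to 2 of 11 in COX6A1 and in COX6C. Blocks differ in length and no such share was taken over the loci, so this number does not show a gathering of regions at the 3′ end. The 3′-most block exceeded the 5′-most block in 8 of 8 genes in each replicate, against 51.8% of loci with at least 2 blocks in replicate 1 and 51.0% in replicate 2. The genes were taken over their whole windows, whereas a locus ends at a gap of more than 5 kb. COX6C and COX5A each had such a gap and would be split as loci. Loci as thoroughly enriched as these genes had larger shares. Among loci of at least 10 clusters with at least 80% of them enriched, 78.0% in replicate 1 and 79.8% in replicate 2 were higher at the 3′ end, so the direction is common in that class. The class can include loci of these 8 genes themselves.

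The size of the difference was at least 1 log2 unit in 6 of 8 genes in replicate 1 and 5 of 8 in replicate 2. Over all loci with at least 2 blocks these shares were 25.0% and 24.6%, and in the thoroughly enriched class 44.1% and 43.5%. COX6C and COX5A, which the gap rule for loci would split, were among the genes counted in each replicate. The median difference over the 8 genes was 1.21 as the mean of both replicates. It was largest in COX6A1, at 2.49 ± 0.09 (SD, n = 2), or 5.63-fold, and COX5A, at 2.37 ± 0.76. COX6C had 2.18 ± 0.37 and COX7C 1.41 ± 0.32. In COX6B1 (1.01 ± 1.30) and COX4I1 (0.98 ± 1.09) the SD exceeded the difference. The values for COX8A were 0.95 ± 0.67 and for COX5B 0.67 ± 0.02.

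**Figure D4:**
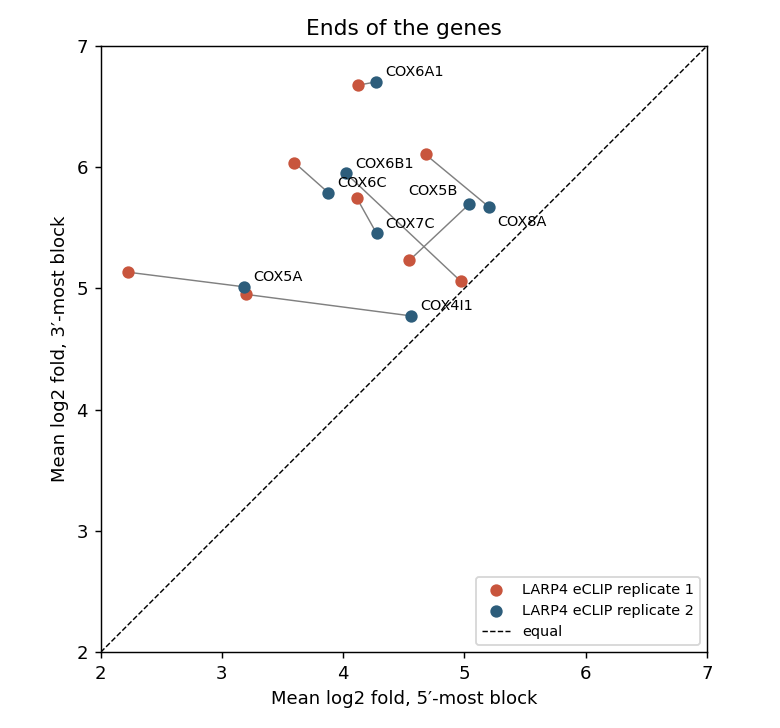
Mean log2 fold, weighted by cluster width, of the 3′-most block (vertical axis) against the 5′-most block (horizontal axis) of each gene, with a line joining the replicates. All 16 points lie above the dashed line of equal folds. For COX6B1 the 5′-most block of replicate 1 is the third of the gene's 4 blocks, because replicate 1 had no cluster in the first 2.

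Among the subunits that cross the membrane once, COX6A1, which encodes the form of subunit VIa found in most tissues, had the steepest profile. Its run lay on chromosome 12, plus strand, 120875925 to 120878522, in 3 blocks. Block means were 6.68 in replicate 1 and 6.70 in replicate 2 at the 3′ end, 5.76 and 5.11 in the middle, and 4.12 and 4.27 at the 5′ end. Both 3′ clusters lay above every other cluster of the gene in each replicate. The last region, 120878449 to 120878522, had log2 folds of 6.68 and 7.71, at least 102.9-fold in both replicates, and ranked first of 7153 in the authors' fold. The 5′-most region, 120875927 to 120875953, had 3.59 and 4.12 and ranked 2786.

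COX8A, which encodes one of the smallest subunits, had 2 blocks on chromosome 11, plus strand. Its 3′ block, 63743697 to 63743995, was the longest of all 31 at 299 bases and held 10 of the gene's 13 regions, with means of 6.11 and 5.67 in replicates 1 and 2. The 5′ block, 63742131 to 63742266, had 4.68 and 5.20. The highest region, 63743732 to 63743799, had 6.54 and 6.12, at least 69.3-fold in both replicates. The 3′-most region, 63743947 to 63743995, had 5.51 and 5.05, below the highest region in both replicates. The cluster folds of the 3′ and 5′ blocks overlapped in both replicates.

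COX6C, which encodes another single-span subunit, had 4 blocks on chromosome 8, minus strand, with the highest mean at the 3′ end in both replicates. From the 5′ to the 3′ end they were 3.60, 4.52, 5.28 and 6.04 in replicate 1, and 3.88, 3.82, 4.45 and 5.79 in replicate 2, where the first pair were nearly level. The 3′-most region, 100890402 to 100890481, had 6.04 and 5.84, at least 57.2-fold in both, and ranked 14 in the authors' list at 6.42. The 5′-most region, 100905867 to 100905909, had 3.60 and 3.88.

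COX7C encodes a subunit that also spans the inner membrane once, and its run lay on chromosome 5, plus strand, 85913765 to 85916561. Block means were 5.74 and 5.45 at the 3′ end in replicates 1 and 2, against 4.11 and 4.28 at the 5′ end. The highest region, 85916490 to 85916561, was also the 3′-most, at 5.83 and 5.46. A 12-base region in the middle, 85915170 to 85915181, was 3.20 in replicate 1 and 5.40 in replicate 2, an SD of 1.56 between replicates.

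COX6B1, whose product faces the intermembrane space and takes part in dimer contacts, was the gene with the clearest difference in coverage. On chromosome 19, plus strand, replicate 2 had clusters at 36139274 to 36139305 and at 36142135 to 36142146, with means of 4.02 and 3.93. Replicate 1 had no cluster in either place, and the series-wide list had no region there. The block at 36145527 to 36145573 was alike in both, at 4.97 and 4.93. The 3′ block, 36149496 to 36149640, had 5.06 and 5.95. The region with the highest lower value, 36149496 to 36149497, is 2 bases wide, with 5.37 and 6.67, and the 3′-most region, 36149602 to 36149640, had 5.19 and 5.74.

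Of the matrix-facing subunits, COX5B, which binds zinc, had the most regions of any gene, 15, on chromosome 2, plus strand. Its 3′ block, 98264459 to 98264639, held 8 of them, with means of 5.23 and 5.69, against 4.55 and 5.04 for the 5′ block, 98262539 to 98262652. The 3′ block was not uniform. Its first region, 98264460 to 98264477, had 4.01 and 3.86, and the region at 98264526 to 98264535 had 5.59 and 5.90, the highest lower value, which it shares with the next 3 regions. The 3′-most region, 98264587 to 98264605, had 5.59 and 6.21. Replicate 1 drew 1 cluster across 5 of these regions, so its value is the same for each. A further replicate 2 cluster, 98264606 to 98264639, had 6.54 and no partner in replicate 1.

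COX5A, the other matrix-facing subunit, had the lowest width-weighted mean and the fewest regions, 4, on chromosome 15, minus strand. Without weights for width its mean was 4.15 and that of COX4I1 was 3.89, so COX4I1 was then the lowest. The 5 blocks from the 5′ to the 3′ end had means of 2.23, 2.05, 4.72, 4.23 and 5.13 in replicate 1, and 3.18, 3.33, 4.74, 5.25 and 5.01 in replicate 2. The first pair of blocks lay apart from the other 3 in each replicate, and passed the threshold in replicate 2 alone. The highest region by the lower value, 75212686 to 75212766, was also the 3′-most, at 5.07 and 5.11. The 5′-most region, 75219151 to 75219191, had 4.72 and 4.74.

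COX4I1 encodes subunit IV, the largest of the nuclear-encoded subunits and a site of regulation by ATP. It had 5 blocks on chromosome 16, plus strand, with means from the 5′ to the 3′ end of 3.20, 3.51, 3.13, 4.18 and 4.95 in replicate 1 and 4.56, 3.70, 3.68, 3.72 and 4.77 in replicate 2. The 3′ block was highest in both, while the 5′ block was second lowest in replicate 1 and second highest in replicate 2. The highest and 3′-most region, 85840457 to 85840584, had 5.21 and 5.15, at least 35.5-fold in both, and the 5′-most region, 85833256 to 85833358, had 3.20 and 4.56.

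Signal on the opposite strand was limited to COX4I1. Each replicate had 1 minus-strand cluster at the 5′ edge of that window, at 85833021 to 85833113 in replicate 1 and 85833024 to 85833131 in replicate 2, with log2 folds of 2.43 and 1.96. Neither passed the threshold. EMC8, the neighbour of COX4I1 in RefSeq, is on the minus strand, and whether these clusters belong to it was not tested. The other 7 windows had no opposite-strand cluster in any list.

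RefSeq names 47 pseudogenes after the 8 genes: 18 for COX6C, 8 for COX5B, 7 for COX6B1, 6 for COX6A1, 4 for COX7C, 2 each for COX4I1 and COX5A, and none for COX8A. No source used here states how reads that match several places were counted, and the part of such reads in the folds was not tested. Other nuclear-encoded subunits and the mitochondrially encoded ones were not analysed here.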

How the data were processed

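LARP4 eCLIP and size-matched input libraries of HEK293 cells were grouped by sample title. Per the submitters' processing notes, UMI-tools 1.0.0, cutadapt 1.14, STAR 2.7.6a, SAMtools 1.6 and hg19 were used. No source used here states the peak caller, the scaling, the pairing of inputs or how the series-wide list was made. For each interval the authors deposited a log2 fold over input and a −log10 p, as judged from the values of these headerless lists. Depth is unknown.

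Starts were converted to 1-based hg19 positions. Overlaps need 1 base on 1 strand, with the longest overlap taken as partner. Means per gene or block are weighted by cluster width, and SDs are over 2 replicates, called biological in the labels. All 8 genes are named. Regions named per gene are the 5′-most, the 3′-most and the one whose lower replicate value is highest, and others were chosen after their values were seen. The members and lists were chosen with earlier results of these data known, and blocks, loci and transcript starts were added after seeing the data. No test was run. Overlap functions were tested on simulated data. Python 3.11.15, numpy 2.4.6, pandas 2.3.3 and matplotlib 3.10.9 were used.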

Additional observations from a re-analysis of the deposited data

How the results depend on the processing

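No alternative reversed a value, and of 86 alternative values 73 stayed within 1.5 times (counts) or 1 SD between replicates (means) and 13 did not. Some of the 73 could not have moved, so their number does not measure stability. A gene mean over 2 replicates lies within 1 SD of either replicate by arithmetic. Raising the −log10 p limit to 5 removed no cluster, since all enriched clusters lay well above it. The counts of enriched clusters, of clusters enriched in both replicates, of regions, of blocks and of genes higher at the 3′ end all stayed within 1.5 times. With a fold threshold of 4 on the log2 scale, replicate 1 had 56 enriched clusters, replicate 2 had 69, and 50 were enriched in both. The median of the gene means, 4.86, was 4.76 unweighted, and between 4.84 and 4.93 with 1 replicate left out. The mean position of regions in the run of clusters (0 at the 5′ and 1 at the 3′ end) was 0.615 over the 8 genes, 0.600 with the window as length and 0.671 without COX6A1. From enriched clusters of a single replicate it was between 0.566 and 0.581. Only 1 cluster of the windows was enriched in neither replicate, so positions had no not-enriched clusters to be set beside. The median difference of the 3′-most and 5′-most blocks, 1.21, was 0.997 with gaps of 200 bases between blocks. It was 1.69 from replicate 1 alone and 1.505 from replicate 2 alone. Of 48 single-gene values 4 moved, 3 of them unweighted means (COX6A1 5.20, COX4I1 3.89, COX7C 4.47). Unweighted, COX8A at 5.59 stood above COX6A1, which was close to COX6B1 at 5.14, and COX5A at 4.15 stood above COX4I1. No paired analysis was possible because the inputs enter only as the denominator of the deposited folds. Because the number of reads is unknown, no interval's fold can be given an error of its own.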
